A study of Mus musculus with 24 samples.

Results

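The genes described here are the mouse genes named Gpr followed by a number: orphan G protein-coupled receptors and related receptors whose symbol still carries the family stem. They were chosen by symbol alone, with no measured value in the rule, though earlier results of these data were known. They number 75 of the 27179 genes in a table of H3K4m3-Seq values. In H3K4m3-Seq, chromatin is pulled down with an antibody that recognises trimethylated lysine 4 of histone H3, and the DNA that comes with it is sequenced. Brain, heart, kidney and liver of mice were profiled, each organ either flash frozen (Frozen) or fixed in formalin and embedded in paraffin (FFPE), and the labels give no strain, age or treatment beyond the preservation. The table held 1 column for each of the 8 combinations. Each column is called a library below, so an organ had 2 libraries and a preservation type 4. The columns name no antibody and were taken as H3K4m3 from the title of the table and the series. The labels do not say whether an FFPE column holds 1 or both FFPE samples of an organ.

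G protein-coupled receptors are membrane proteins that span the membrane in a bundle of helices and pass an outside signal to a heterotrimeric G protein, whose alpha subunit then steers enzymes such as adenylyl cyclase. Receptors were named Gpr when their gene was found before their ligand, and many are still orphans. The name is therefore no family of common descent: it covers class A orphans abundant in neurons, class C orphans related to glutamate receptors, receptors of immune cells, and membrane proteins of the Golgi and lysosome that may not be receptors at all. H3K4m3 marks the start sites of genes that are transcribed or poised to be, and its amount in a bulk tissue depends both on how many cells carry the mark and on how much each carries. Those 2 quantities cannot be told apart in these libraries.

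The promoters of 4 genes that the results turn on are given first, as the 250 bases before the RefSeq start site on the gene's strand (GRCm38.p6). Capitals mark CG dinucleotides, which are frequent in many mammalian promoters that carry H3K4m3. Gpr158, Gpr85 and Gpr22 had the largest differences in brain, and Gpr39 the largest in the opposite direction. The windows are chr2:21367317-21367566 (plus strand) for Gpr158, chr6:13839943-13840192 (minus) for Gpr85, chr12:31713884-31714133 (minus) for Gpr22 and chr1:125676746-125676995 (plus) for Gpr39.
Gpr158: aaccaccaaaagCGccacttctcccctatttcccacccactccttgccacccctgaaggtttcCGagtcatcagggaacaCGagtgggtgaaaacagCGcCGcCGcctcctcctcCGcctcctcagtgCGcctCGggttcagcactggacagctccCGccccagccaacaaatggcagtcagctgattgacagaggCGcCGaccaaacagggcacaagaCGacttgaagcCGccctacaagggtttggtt
Gpr85: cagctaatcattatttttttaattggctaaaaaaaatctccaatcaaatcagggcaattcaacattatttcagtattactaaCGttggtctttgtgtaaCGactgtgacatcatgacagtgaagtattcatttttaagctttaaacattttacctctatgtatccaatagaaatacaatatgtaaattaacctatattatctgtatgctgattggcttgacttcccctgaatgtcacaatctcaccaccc
Gpr22: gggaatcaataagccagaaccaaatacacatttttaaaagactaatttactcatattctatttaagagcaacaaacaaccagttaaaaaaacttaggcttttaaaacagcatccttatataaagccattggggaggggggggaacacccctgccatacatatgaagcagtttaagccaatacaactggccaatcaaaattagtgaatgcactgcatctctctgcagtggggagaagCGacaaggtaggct
Gpr39: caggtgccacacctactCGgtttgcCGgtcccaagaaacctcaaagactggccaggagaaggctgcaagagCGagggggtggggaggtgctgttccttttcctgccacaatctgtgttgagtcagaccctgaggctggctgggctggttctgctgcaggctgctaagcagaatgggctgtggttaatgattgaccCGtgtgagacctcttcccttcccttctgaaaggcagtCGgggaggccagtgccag
Gpr158 held 14 CG in this stretch, Gpr85 held 2, Gpr22 held 1 and Gpr39 held 5. The 3 genes with the largest brain differences thus differed widely in the CG content before their start.

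Depth ranged from 1792394 reads in the frozen heart library to 5275085 in the FFPE kidney library. Levels are given in CPM, the deposited log2 value without the log, which counts 0.5 read on top of each count. All 75 genes passed the low-value filter, none had a count of 0 in any library, and their reads over the 8 libraries ran from 106 to 2679 per gene. In 25 of them no library reached 100 reads, the number needed for a counting error of 10 percent. The length over which reads were counted is not given, so levels are compared between libraries and not between genes. As a check of the labelled organs, 12 of 12 neuron markers were higher in brain, 9 of 9 hepatocyte markers in liver, 6 of 9 cardiomyocyte markers in heart and 6 of 9 kidney markers in kidney. Each organ was compared with the mean of the other 3 organs, and FFPE with frozen, in 1 linear model. Genes called as passing have a p-value under 0.05 after adjustment over all 25680 tested genes. Frozen and FFPE tissue were prepared by different procedures and library kits are not assigned to samples, so preservation, preparation and kit cannot be told apart. Nothing states that libraries came from separate animals, so the p-values reflect spread between the libraries alone, some or all of it possibly technical.

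Brain stood apart most often. Of the 75 Gpr genes, 27 passed in brain (36%, and 10.1% of all tested genes): 23 were higher there than in the mean of the other organs and 4 were lower. These are 30.7% and 5.33% of the genes, where 5.53% of all tested genes were higher in brain and 4.53% were lower. The median difference in brain was 0.47 on the log2 scale over the Gpr genes and -0.01 over all tested genes. For 43 of the 75 the organ with the highest mean was brain (27.1% of all tested genes), for 9 it was liver (29.3% of all tested genes), and for 35 the organ with the lowest mean was liver (29.2% of all tested genes). In 24 genes both brain libraries lay above all 6 others, against 7.56% of all tested genes. A test for any difference among organs was passed by 26 Gpr genes (34.7%) and by 14.4% of all tested genes. Summed over their list, the neuron markers had 811 to 958 CPM in the brain libraries and 169 to 319 CPM in the others. The part of cell content in the Gpr differences was not tested.

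**Figure D1:**
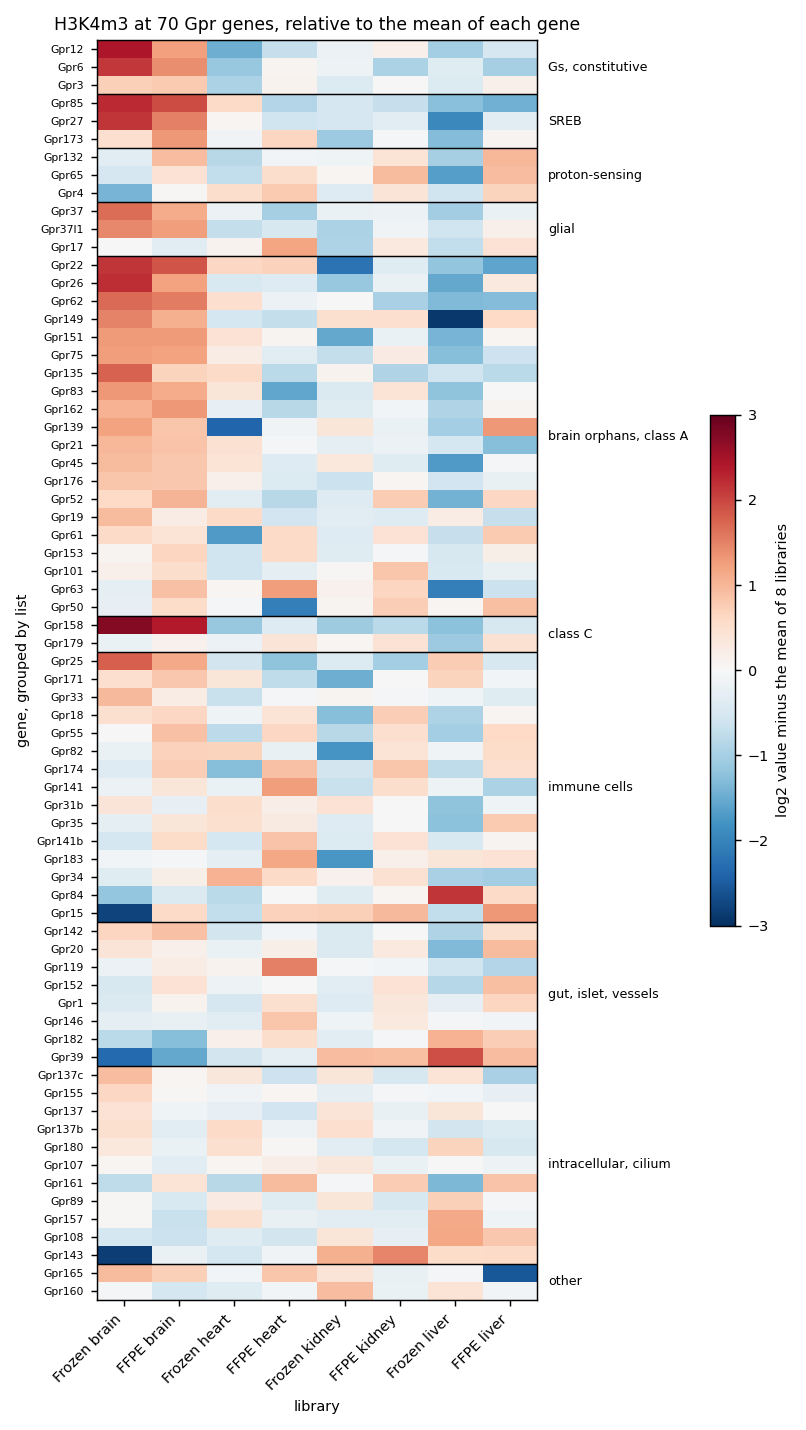
Each row is a gene (70 of the 75 Gpr genes), grouped by list, and each column 1 of the 8 libraries; colour is the log2 value minus the gene's mean over the 8 libraries. The brain columns are red for the 3 Gs-coupled receptors, the 3 SREB receptors and much of the brain orphan list, and the rows of immune receptors and intracellular proteins show no common organ.

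Gpr158 had the largest difference of any Gpr gene. It is a class C orphan of neurons, at chromosome 2, 21367567 to 21830544 (gene ID 241263, GRCm38), for which glycine has been proposed as a ligand. Its level was 237 CPM in frozen and 182 CPM in FFPE brain, against 16.1 and 26.8 CPM in heart, 16.9 and 20.1 CPM in kidney, and 15.1 and 25.1 CPM in liver (frozen first in each pair). Both brain libraries lay far above the other 6, which overlapped one another. The difference was 3.41 ± 0.25 on the log2 scale (SE, 2 brain and 6 other libraries), or 10.6-fold, with an adjusted p of 5.21e-06. Gpr179, a class C relative that serves as a scaffold in retinal bipolar cells, differed by -0.04 in brain and did not pass.

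The SREB receptors, named for being superconserved and expressed in brain, are Gpr85, Gpr27 and Gpr173, and 3 of 3 were higher in brain with a list median of 2.43. Gpr85 (gene ID 64450, chromosome 6, 13834406 to 13839942) was at 259 and 214 CPM in frozen and FFPE brain, 81.0 and 29.9 CPM in heart, 38.6 and 33.7 CPM in kidney, and 23.0 and 20.0 CPM in liver. Brain was highest and liver lowest in both preservation types, and neither overlapped another organ. The brain difference was 2.81 ± 0.24 (7.00-fold, adjusted p = 1.19e-05). Gpr27, known from brain and from pancreatic islets, was at 89.1 and 57.4 CPM in brain and between 5.30 and 21.2 CPM elsewhere, a difference of 2.43 ± 0.39 (5.38-fold, adjusted p = 0.000964). Gpr173 was higher by 1.20 ± 0.34 (adjusted p = 0.0352), but its frozen brain library, at 18.5 CPM, lay below the FFPE heart library at 20.4 CPM. Leaving out the frozen brain library raised the adjusted p to 0.172 for Gpr27 and 0.583 for Gpr173. Gpr173 also failed without FFPE brain (0.193) and with any 1 heart or kidney library left out (0.0548 to 0.0894), whereas Gpr85 passed without any 1 library.

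Gpr3, Gpr6 and Gpr12 form a family that raises cAMP through Gs without an added ligand, and 3 of 3 were higher in brain, with a list median of 2.35. Gpr12 (gene ID 14738, chromosome 5, 146582150 to 146586465) was at 97.0 and 42.4 CPM in frozen and FFPE brain and between 6.49 and 20.1 CPM in the 6 other libraries. Its difference was 2.45 ± 0.37 (5.46-fold, adjusted p = 0.000595). Gpr6, abundant in striatal neurons, was at 29.7 and 17.9 CPM in brain and at most 7.20 CPM elsewhere, a difference of 2.35 ± 0.51 (adjusted p = 0.00719). Gpr3 had the smallest difference of the family, 0.99 ± 0.24 (1.99-fold, adjusted p = 0.0148). It was at 53.8 and 57.0 CPM in brain and between 17.2 and 36.8 CPM in the others. All 3 family members had both brain libraries above every other library. With the frozen brain library left out, the adjusted p was 0.18 for Gpr12, 0.384 for Gpr6 and 0.614 for Gpr3. It was 0.0615 for Gpr6 without the FFPE brain and 0.0531 for Gpr3 without the FFPE kidney library.

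Among 22 class A orphans known from brain, 11 were higher in brain, 0 were lower (5.53% and 4.53% of all tested genes), and the list median was 1.20. Its genes were listed because they are known from brain, so a lean towards brain was partly built in. Gpr22, an orphan known from brain and heart, was at 205 and 171 CPM in frozen and FFPE brain, 72.0 and 74.6 CPM in heart, 10.1 and 36.2 CPM in kidney, and 20.6 and 15.5 CPM in liver. Heart was next after brain in both preservation types, and the heart libraries lay above the 4 of kidney and liver. The brain difference of Gpr22 was 2.68 ± 0.33 (6.40-fold, adjusted p = 0.000152), while its heart difference of 0.87 ± 0.33 did not pass (adjusted p = 0.22). Gpr62, an orphan of myelin-forming cells, was at 151 and 135 CPM in brain, 65.8 and 41.5 CPM in heart, 46.7 and 23.9 CPM in kidney, and 18.6 and 19.0 CPM in liver. Its brain difference was 2.16 ± 0.22 (4.47-fold, adjusted p = 4.12e-05), with brain highest and liver lowest and no overlap of either with other organs. Gpr62 overlaps Pcbp4, which differed by 2.38 in brain (adjusted p = 1.35e-05). Unless the counting used strand and exon, reads of the 2 genes cannot be told apart.

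Gpr26, a constitutively active orphan of brain, differed by 2.29 ± 0.45 (4.87-fold, adjusted p = 0.00417). It was at 66.3 CPM in frozen and 33.1 CPM in FFPE brain, and at most 17.4 CPM elsewhere. Among the other brain orphans that passed were Gpr151, a marker of habenular neurons, at 1.71, Gpr75 at 1.64, Gpr135 at 1.63, Gpr162 at 1.56, Gpr21 at 1.23, Gpr176, known from the circadian clock of the brain, at 1.09, and Gpr19 at 0.78. The brain libraries of Gpr19 overlapped those of other organs. The 11 that did not pass were all above 0, from 0.21 for Gpr50 to 1.71 for Gpr149, whose adjusted p was 0.107. Without the frozen brain library, 2 of the 11 passed, Gpr22 and Gpr62. The adjusted p was then 0.0671 for Gpr135, 0.0823 for Gpr162, 0.244 for Gpr21 and between 0.4 and 0.661 for Gpr75, Gpr176, Gpr19, Gpr26 and Gpr151. Without the FFPE brain library, 5 of the 11 passed, and those that did not included Gpr75 (0.0794), Gpr151 (0.0907), Gpr21 (0.201), Gpr176 (0.143) and Gpr19 (0.237). Gpr151, Gpr176 and Gpr19 also failed without FFPE heart (0.0567 to 0.107), and these 3 and Gpr21 without frozen kidney (0.0527 to 0.141).

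Of 3 receptors known from glia, Gpr37 and Gpr37l1 were higher in brain and Gpr17 was not. Gpr37, for which prosaposin has been proposed as a ligand, was at 76.7 and 52.4 CPM in frozen and FFPE brain and between 11.6 and 21.2 CPM elsewhere, a difference of 1.87 ± 0.31 (adjusted p = 0.00136). Its relative Gpr37l1, a receptor of astrocytes, was at 36.4 and 32.1 CPM in brain and between 6.99 and 14.8 CPM elsewhere (1.80 ± 0.35, adjusted p = 0.00366). Both had brain libraries above all others. Gpr17, a receptor of oligodendrocyte precursors, was at 38.9 and 30.8 CPM in brain but at 42.0 and 87.7 CPM in heart, and its brain difference was -0.23 ± 0.28 (adjusted p = 0.755). Gpr17 overlaps Lims2, which was lower in brain, at -0.98 (adjusted p = 0.0303). Markers of oligodendrocytes and of astrocytes were higher in brain for 4 of 10 and 2 of 8 genes, and 1 astrocyte marker was lower. The adjusted p without the frozen brain library was 0.177 for Gpr37 and 0.344 for Gpr37l1.

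The proton-sensing receptors Gpr4, Gpr65 and Gpr132 did not pass in brain. Gpr4, a receptor of endothelial cells, differed by -0.91 ± 0.29 (adjusted p = 0.061), with 8.94 CPM in frozen brain and 33.6 CPM in frozen heart. Endothelial markers were lower in brain for 8 of 12 genes and higher in heart for 9 of 12. Gpr132 and Gpr65, known from immune cells, differed by 0.41 and -0.055.

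The 15 immune-cell receptors in the table gave 1 gene higher in brain, Gpr25, and 0 lower (5.53% and 4.53% of all tested genes). The count of higher genes is thus near the share of all tested genes. Gpr25, an orphan of T cells until recently, was at 110 and 69.1 CPM in frozen and FFPE brain, 21.7 and 13.6 CPM in heart, 23.7 and 15.7 CPM in kidney, and 53.2 and 22.5 CPM in liver. Brain was highest in both preservation types, and the lowest brain library lay above the highest liver library. The difference was 1.95 ± 0.23 (3.87-fold, adjusted p = 0.000104). The other 14 ran from -1.46 for Gpr15 to 0.87 for Gpr171 and did not pass. Lymphocyte markers gave 0 of 10 calls in brain by limma (1 at an unadjusted p under 0.05), and summed to 144 and 151 CPM in the brain libraries and 126 to 205 CPM in the others.

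**Figure D2:**
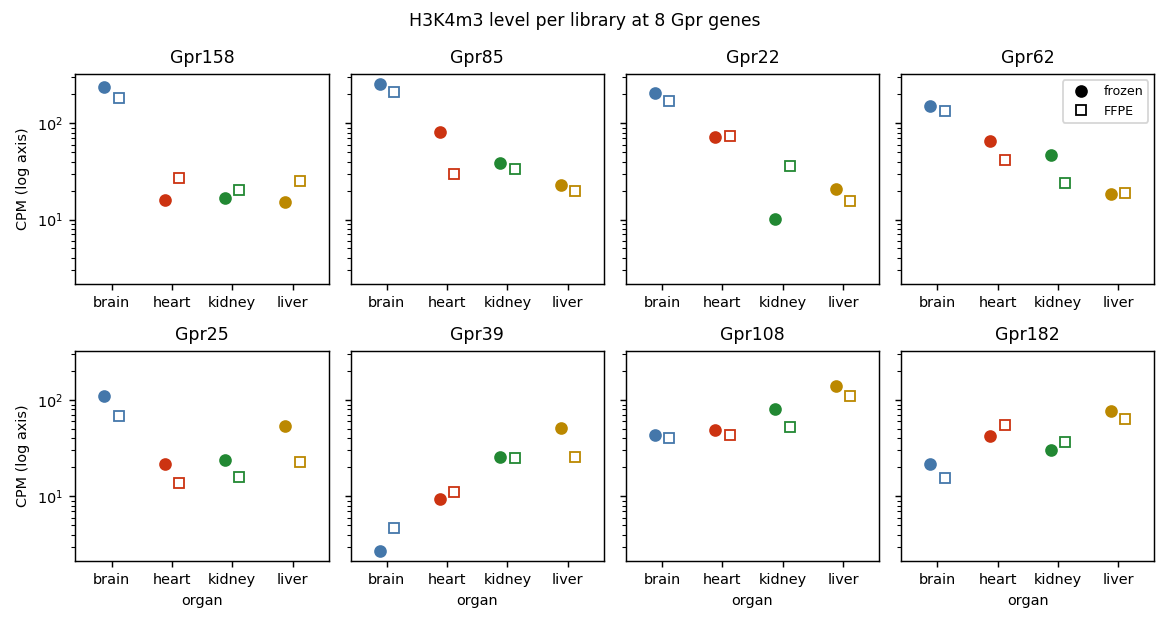
Level in CPM (log axis) of 8 Gpr genes in each organ, with 1 filled circle for the frozen and 1 open square for the FFPE library. The brain points lie above all others for Gpr158, Gpr85, Gpr22, Gpr62 and Gpr25 and below all others for Gpr39 and Gpr182, and the liver points lie above all others for Gpr108 and Gpr182.

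Brain was lowest for Gpr39 and Gpr182, the only 2 Gpr genes with both brain libraries below all 6 others (4.64% of all tested genes). Gpr39, a zinc-sensing receptor of gut, liver and kidney (gene ID 71111, chromosome 1, 125676996 to 125873862), was at 2.70 and 4.65 CPM in frozen and FFPE brain, 9.31 and 11.2 CPM in heart, 25.9 and 25.3 CPM in kidney, and 51.6 and 25.8 CPM in liver. The libraries rank brain, heart, kidney and liver in both preservation types. Gpr39 was lower in brain, with a log2 difference of -2.58 ± 0.38 (5.99-fold lower, adjusted p = 0.000499), from 6 and 24 reads in the brain libraries. Gpr182, a scavenging chemokine receptor of endothelial cells, was at 21.8 and 15.6 CPM in brain, 42.0 and 55.0 CPM in heart, 30.0 and 36.6 CPM in kidney, and 77.5 and 63.6 CPM in liver (-1.38 ± 0.23, adjusted p = 0.00132). Endothelial markers summed to 275 to 356 CPM in the brain, 866 to 1050 CPM in the heart and 391 to 631 CPM in the kidney and liver libraries, and their part in the Gpr182 value was not tested. The remaining 2 genes that passed as lower in brain were Gpr108 at -0.78 ± 0.18 (adjusted p = 0.0118) and Gpr143, a melanosome receptor, at -2.02 ± 0.60 (adjusted p = 0.0469). Gpr143 had 1 read in the frozen brain library and 20 in the FFPE one, and its adjusted p was 0.924 without the frozen one. Calls were also lost for Gpr39 (adjusted p = 0.0641) and Gpr108 (0.417) without the frozen and for Gpr182 (0.0669) without the FFPE brain library. Gpr108 also lost its call without the FFPE brain (0.0687) or the frozen kidney library (0.0669), and Gpr143 with any 1 library left out other than FFPE brain or FFPE liver (0.0681 to 0.139 for those outside brain). The others of the gut list did not pass, the highest of them Gpr142 at 1.02, and 8 others of the intracellular list between -0.42 for Gpr157 and 0.43 for Gpr155. Gpr137c, a lysosomal protein, was higher by 0.66 ± 0.18 (adjusted p = 0.0266), and lost that call without either library of brain (0.272 frozen, 0.319 FFPE), heart (0.0681, 0.0587) or kidney (0.113, 0.0666). Gpr165 and Gpr160, which no list held, were at 1.11 and -0.39 and did not pass.

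The brain differences of the Gpr genes were alike in the frozen and the FFPE libraries, which share no library. Over the 75 genes, Pearson's r between the differences within the 4 frozen and within the 4 FFPE libraries was 0.83 (Spearman's rho 0.835), and 0.497 over all tested genes; genes are not independent replicates. All 27 genes that passed in brain had the same sign in both, which is close to given. Opposite signs would have widened the residual spread of the fit that chose these genes. Their median absolute difference was 1.98 in frozen and 1.43 in FFPE tissue, and 20 of the 27 were larger in frozen tissue. Gpr12 was one of the least even, at 3.32 within frozen and 1.58 within FFPE libraries, and Gpr26 another, at 3.26 and 1.32. Gpr85, Gpr62 and Gpr25 were larger in FFPE tissue, at 2.97, 2.35 and 2.03 against 2.64, 1.98 and 1.87 in frozen tissue. Without the frozen brain library, 6 Gpr genes passed in brain (1.27% of all tested genes did): Gpr158, Gpr85, Gpr22, Gpr62, Gpr25 and Gpr182. Without the FFPE brain library, 16 passed (6.22% of all tested genes). Neuron markers passed for 3 of 12 and 9 of 12 genes in those settings. Gpr158, Gpr85, Gpr22, Gpr62 and Gpr25 passed whichever of the 8 libraries was left out.

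**Figure D3:**
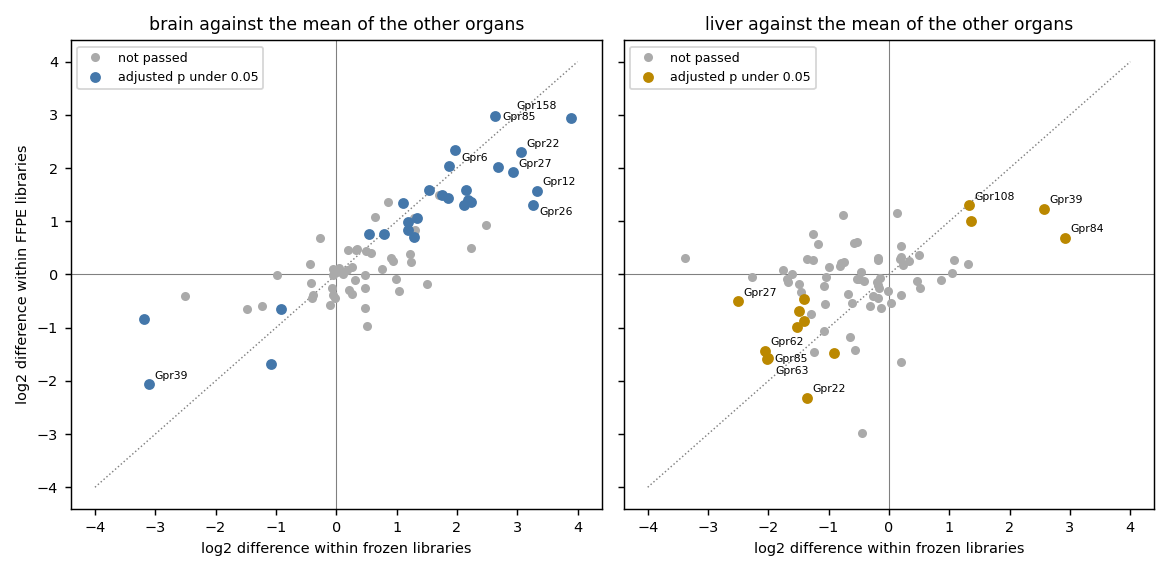
Log2 difference of an organ from the mean of the others, within frozen libraries (x) and within FFPE libraries (y), for 75 Gpr genes; the left panel is brain and the right panel liver, coloured points passed, and the dotted line marks equal values. In brain the coloured points lie in the upper right or lower left, mostly to the right of the line among the higher genes, as 20 of 27 were larger in frozen tissue.

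In liver, 14 Gpr genes passed (18.7%, and 9.96% of all tested genes). Of these, 10 were lower and 4 higher than the mean of the other organs, 13.3% and 5.33% of the 75, where 4.84% and 5.13% of all tested genes were lower and higher. The median was -0.31 over the Gpr genes and -0.01 over all tested genes. Of the 10 lower genes, 9 were higher in brain, and the comparisons share all 8 libraries: a gene high in brain raises the mean that liver is set against. The lower genes included Gpr22 at -1.84, Gpr85 at -1.80, Gpr63 at -1.79, Gpr62 at -1.74, Gpr27 at -1.50, Gpr75 at -1.26, Gpr21 at -1.20, Gpr158 at -1.14 and Gpr135 at -0.94. Liver itself was lowest without overlap for Gpr85, Gpr62, Gpr63 and Gpr21 among these (8 of all 75 Gpr genes, and 4.44% of all tested genes). Gpr63, an orphan known from brain that was not higher there, was at 2.16 and 5.72 CPM in frozen and FFPE liver, 7.27 and 16.4 CPM in brain, 9.31 and 21.3 CPM in heart, and 9.7 and 14 CPM in kidney (-1.79 ± 0.40, adjusted p = 0.0113). It overlaps C230012O17Rik, also lower in liver but lower in FFPE tissue, where Gpr63 was higher. How far reads of the pair were shared is not known.

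The 4 genes higher in liver were Gpr39, Gpr84, Gpr108 and Gpr182, and for the last 3 both liver libraries lay above all others (5.12% of all tested genes). Gpr108, a Golgi protein that tunes innate immune signalling, was at 140 and 111 CPM in frozen and FFPE liver, 81.0 and 52.9 CPM in kidney, 49.4 and 43.3 CPM in heart, and 43.8 and 40.3 CPM in brain. Liver was highest in both preservation types with no overlap, and the difference was 1.31 ± 0.18 (2.48-fold, adjusted p = 0.000674). Gpr39 was higher by 1.90 ± 0.38 (adjusted p = 0.00565), though FFPE liver at 25.8 CPM lay just under frozen kidney at 25.9 CPM. Gpr182 was higher by 1.19 ± 0.23 (adjusted p = 0.0051), with no overlap. Gpr84, a receptor for medium-chain fatty acids on macrophages and neutrophils, was at 75.9 CPM in frozen and 25.6 CPM in FFPE liver and between 7.69 and 18.0 CPM elsewhere (1.80 ± 0.42, adjusted p = 0.013). Macrophage markers, Kupffer cells included, were higher in liver for 1 of 12 genes, near the 5.13% of all tested genes. They summed to 206 and 293 CPM in the liver libraries and 138 to 271 CPM in the others. Their part in the Gpr84 value was not tested. Within frozen libraries Gpr84 differed by 2.92 and within FFPE libraries by 0.69. Leaving out the frozen liver library gave adjusted p-values of 0.553 for Gpr84, 0.269 for Gpr39 and 0.111 for Gpr182, and ended the calls of Gpr63 (0.138), Gpr27 (0.6), Gpr75 (0.372), Gpr158 (0.175) and Gpr135 (0.422). Gpr21 was lost without the FFPE liver (0.0724), frozen brain (0.052), frozen heart (0.0575) or FFPE kidney library (0.0607). Leaving out frozen heart also ended the calls of Gpr84 (0.0503), Gpr27 (0.0866), Gpr75 (0.129) and Gpr135 (0.0679), and leaving out frozen brain those of Gpr27 (0.106), Gpr75 (0.151), Gpr135 (0.0742) and Gpr158 (0.0553). Gpr27 and Gpr135 failed without frozen kidney (0.0553 and 0.0629), Gpr27 and Gpr75 without FFPE kidney (0.0525 and 0.141), and Gpr75 without FFPE brain (0.0769). Gpr22, Gpr85, Gpr62 and Gpr108 passed whichever library was left out. Without the frozen liver library 6 Gpr genes passed (1.81% of all tested genes), and 23 without the FFPE one (18.8%).

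Heart and kidney gave 2 calls each, all lower (2.57% of all tested genes passed in heart and 1.21% in kidney). In heart these were Gpr25 at -1.17 ± 0.23 (adjusted p = 0.018) and Gpr158 at -1.02 ± 0.25 (adjusted p = 0.0473), 2.67% of the Gpr genes, where 0.853% of all tested genes were lower. In kidney they were Gpr22 at -1.71 ± 0.33 (adjusted p = 0.0225) and Gpr158 at -1.25 ± 0.25 (adjusted p = 0.0272), against 0.405% of all tested genes. All 3 of these genes were higher in brain, which enters the mean on the other side, and neither heart nor kidney lay apart from the remaining organs for any of them. In limma's test 0 Gpr genes were higher in heart and 0 in kidney (5 and 2 at an unadjusted p under 0.05), where 1.72% and 0.802% of all tested genes were. Gpr34, a lysophosphatidylserine receptor of microglia and other macrophages, was the only one with both heart libraries above all others, at 18.3 and 13.3 CPM (1.08 ± 0.41, adjusted p = 0.209; 4.18% of all tested genes had both heart libraries on top). Gpr137, a lysosomal protein, had both heart libraries below all others (2.41% of all tested genes), and 0 Gpr genes had both kidney libraries there (1.14%). Gpr143 was the only one with both kidney libraries on top, at 9.25 and 12.3 CPM (1.68 ± 0.60, adjusted p = 0.293; 2.85% of all tested genes). None of the 4 lower calls held when the frozen library of that organ was left out: the adjusted p was 0.392 for Gpr25 and 0.715 for Gpr158 in heart, and 1 for both genes in kidney. The heart calls held only when the library left out was one of liver, and the kidney calls failed in addition without frozen brain, FFPE heart or frozen heart (0.0542 to 0.136) and, for Gpr158, without FFPE kidney (0.284).

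Between preservation types, 26 Gpr genes passed (34.7%, and 37.8% of all tested genes). Of these, 16 were higher and 10 lower in FFPE than in frozen tissue, averaged over organs, which is 21.3% and 13.3% of the 75, where 16.5% of all tested genes were higher and 21.3% lower in FFPE. The median difference, FFPE minus frozen, was 0.33 over the Gpr genes and 0.18 over all tested genes. The 4 FFPE libraries lay above the 4 frozen ones for 9 Gpr genes (13.1% of all tested genes) and below them for 2 (17.1%). Some markers of cell types were also higher in FFPE tissue (16.5% of all tested genes). Lymphocyte markers gave 5 of 10 (median 0.99) and those of the oligodendrocyte lineage 5 of 10 (0.79). Kidney gave 4 of 9 (0.69), endothelium 4 of 12 (0.34) and cardiomyocytes 3 of 9 (0.73). Neurons and macrophages, at 2 of 12 each, lay near the share of all tested genes, and astrocytes gave 2 of 8. With 1 library left out in turn, the lowest count was 0 for cardiomyocytes, neurons and astrocytes. It was 1 for lymphocytes and macrophages, 2 for kidney and endothelium and 3 for the oligodendrocyte lineage. Of the 9 hepatocyte markers 1 passed, and it was lower. Lymphocyte markers summed to 126 to 171 CPM in frozen and 144 to 205 CPM in FFPE libraries, which overlap. In every organ the FFPE library also held more reads than the frozen one. The part of cell content or of depth in these differences was not tested.

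Genes higher in FFPE tissue included receptors of immune cells and proton sensors. Of the 15 immune-cell receptors, 4 were higher and 1 lower (16.5% and 21.3% of all tested genes), with a median of 0.71. Gpr174, a lysophosphatidylserine receptor of lymphocytes, was between 3.67 and 6.86 CPM in frozen and between 12.7 and 16.4 CPM in FFPE libraries, without overlap (1.48 ± 0.35, adjusted p = 0.00576). Gpr55, a lysophosphatidylinositol receptor, was between 4.51 and 9.35 CPM in frozen and between 13.1 and 17.0 CPM in FFPE libraries, also without overlap (1.31 ± 0.34, adjusted p = 0.00934). Gpr15, which guides T cells to the gut, had the largest difference, 1.77 ± 0.54 (adjusted p = 0.0203), and rested on low counts, with 1 read in frozen brain. It was at 0.623, 2.54, 6.99 and 2.55 CPM in frozen brain, heart, kidney and liver and at 6.35, 6.89, 8.32 and 10.4 CPM in the FFPE libraries, so frozen kidney overlapped FFPE brain and heart. The proton sensors that were higher were Gpr65 by 1.41 ± 0.40, Gpr132 by 1.12 ± 0.35 and Gpr4 by 0.93 ± 0.25. The ciliary receptor Gpr161, a brake on Hedgehog signalling, differed by 1.48 ± 0.36 (adjusted p = 0.00629). Others that passed as higher were Gpr61, Gpr63, Gpr173, Gpr141b, Gpr152, Gpr17, Gpr179 and Gpr153, between 0.68 for Gpr153 and 1.10 for Gpr61. Gpr152 overlaps Cabp4, also higher at 1.035 (adjusted p = 0.0121), whereas Gpr161 overlaps Tiprl, lower at -0.51 (adjusted p = 0.0171). Without the frozen or the FFPE brain library, calls ended for Gpr15 (adjusted p = 0.104 and 0.129), Gpr132 (0.0725 and 0.0791) and Gpr4 (0.0554 and 0.0654), and Gpr132 also failed without either liver library (0.0688 frozen, 0.0861 FFPE). Gpr65 was lost without the FFPE liver library (0.0602), Gpr61 and Gpr153 without either heart library (0.0912 to 0.126), and Gpr173 with any 1 brain or kidney library left out (0.0507 to 0.0724). Gpr141b and Gpr63 each failed with any 1 library of brain, heart or kidney left out (0.0506 to 0.115), Gpr63 also without FFPE liver (0.051), and Gpr17 with any 1 library of heart, kidney or liver left out (0.0543 to 0.127). Gpr174, Gpr55, Gpr161, Gpr152 and Gpr179 passed whichever library was left out. With quantile normalization Gpr152 (0.0026), Gpr179 (0.000445), Gpr153 (0.0046), Gpr61 (0.0152), Gpr4 (0.00817) and Gpr17 (0.00493) passed, and the calls of Gpr174 (0.0792), Gpr55 (0.122), Gpr161 (0.0621), Gpr65 (0.146), Gpr15 (0.171), Gpr132 (0.211), Gpr63 (0.309), Gpr173 (0.157) and Gpr141b (0.422) ended.

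Of the 11 proteins of Golgi, lysosome, melanosome and cilium, 5 were lower in FFPE tissue and 1 was higher (median -0.47). Of all tested genes, 21.3% were lower and 16.5% higher. Gpr137c was at 158, 105, 108 and 111 CPM in frozen brain, heart, kidney and liver and at 87.5, 54.1, 59.5 and 42.4 CPM in the FFPE libraries. All 4 FFPE libraries lay below the 4 frozen ones, and the difference was -1.01 ± 0.15 (adjusted p = 0.000393). Gpr89, which keeps the Golgi acidic, fell by 0.68 on the log2 scale, also without overlap (33.5 to 53.9 CPM in frozen, 23.7 to 31.4 CPM in FFPE libraries, adjusted p = 0.0134). The other members of that list that were lower were Gpr157 at -0.67, Gpr180 at -0.57 and Gpr137 at -0.47. Gpr135 at -0.93 ± 0.20 (adjusted p = 0.00316) and Gpr25 at -0.80 ± 0.20 (adjusted p = 0.00785), both higher in brain, were lower in FFPE libraries of all 4 organs. So were 11 Gpr genes in all (14.7%) and 26.6% of all tested genes. Gpr135 overlaps L3hypdh, which was also lower, at -0.94 (adjusted p = 0.00172). Gpr19, at -0.73, was likewise lower in FFPE tissue of all 4 organs, though by only 0.08 in kidney. Gpr19 overlaps Crebl2 at -0.72 (adjusted p = 0.00424) and 2810454H06Rik at -0.99 (adjusted p = 0.000594), both also lower. Gpr137 overlaps Bad, lower at -1.14 (adjusted p = 0.000164), whereas Gpr89 overlaps Pdzk1, higher at 1.13 (adjusted p = 0.022). Gpr137c, Gpr135 and Gpr25 passed whichever library was left out, as did 8 of the 26 genes in all. Gpr89 was lost without either kidney library (0.0836 frozen, 0.0763 FFPE), Gpr157 without frozen heart (0.0512) and Gpr19 without either heart library (0.0669 and 0.0616). With 1 library left out, Gpr137 failed for any of brain or kidney (0.072 to 0.108) and Gpr180 for any of brain, heart or liver (0.0638 to 0.109). With quantile normalization, which moved the median of all tested genes from 0.18 to 0.02, 13 Gpr genes passed, 9 of them higher in FFPE, and 10 of the 13 were among the 26. Of the genes named here as lower, Gpr137c, Gpr135, Gpr25 and Gpr89 passed in that setting, while Gpr19 (0.0686), Gpr157 (0.32), Gpr180 (0.189) and Gpr137 (0.995) did not.

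**Figure D4:**
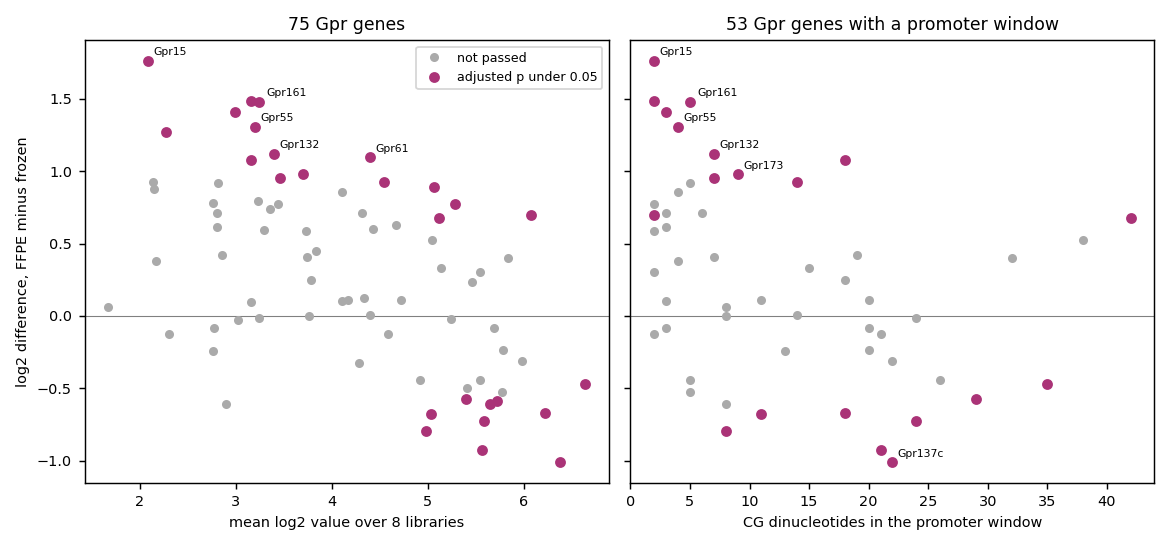
Log2 difference FFPE minus frozen against the mean log2 value over 8 libraries (left, 75 Gpr genes) and against the number of CG dinucleotides in the promoter window (right, 53 genes); coloured points passed. Genes lower in FFPE tissue lie at the right of the left panel, and Gpr15, at the upper left, had the largest difference.

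The FFPE difference moved with the level of the gene and with the CG content of its promoter. Pearson's r between the mean log2 value and the FFPE difference was -0.547 over the 75 Gpr genes and -0.618 over all tested genes. The points share their libraries, the level enters both axes, and it also depends on the counted length. Promoter windows of 300 bases (250 before and 50 after the RefSeq start) were found for 53 Gpr genes and 18321 tested genes. The median was 8 CG in the Gpr windows and 14 over all tested genes, and 25 of the 53 (47.2%) held at least 10, against 59.1%. Over the 53, r was 0.542 between CG number and mean log2 value (0.63 over all tested genes) and -0.38 between CG number and FFPE difference (-0.471). Windows of 16 genes higher in brain held a median of 14 CG, those of 12 genes higher in FFPE tissue 6, and those of 8 genes lower in FFPE tissue 21.5. CG-poor and CG-rich windows were both found among the largest brain differences: 15 CG in the 300-base window of Gpr158, 11 in that of Gpr12, 5 in that of Gpr85 and 2 in that of Gpr22.

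Short motifs were searched on both strands of these windows. TATAAA, the TATA box, was in 6 Gpr windows (11.3%, and 12.6% of all tested genes), Gpr22 among them. TGACGTCA, the full cAMP response element, was in the window of Gpr6 alone (1.89%, and 2.37% of all tested genes). The core of RE1, the element through which neuronal genes are silenced outside neurons, was in 0 Gpr windows and in 7 of the 18321. After the Gpr158 promoter had been read, TTCAGCAC and GGACAGC, letters from both ends of that element, were searched as well. Gpr158 held both, in the stretch printed above as ggttcagcactggacagctcc. That match was fixed in advance, since the strings were chosen from this promoter, and the core with its own spacing was not found there. No other Gpr window held both, and 0.158% of all tested genes did. A match describes letters and is no evidence of binding.

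Of the 75 Gpr genes, 30 overlap another gene of the table in the RefSeq annotation, and unless the counting used strand and exon, reads of the pair cannot be told apart. Among the 23 genes higher in brain, 14 overlap none, Gpr158, Gpr85, Gpr12, Gpr6, Gpr25 and Gpr37 included, and 9 do. Of the 14, Gpr162 lies within 1000 bases of P3h3 at 1.005 (adjusted p = 0.0104) and Cd4 at 1.05 (adjusted p = 0.0237), both also higher in brain. Gpr137c lies as near to Txndc16 and Ero1a, which did not pass in brain. For Gpr22 the partner Cog5 differed by 0.33 in brain, for Gpr27 the partner Eif4e3 by 0.38, for Gpr75 the partner Erlec1 by -0.15, for Gpr21 the partner Rabgap1 by -0.05 and for Gpr135 the partner L3hypdh by -0.55. None of these 5 partners passed, nor did Crebl2 at 0.25 and 2810454H06Rik at 0.04, which Gpr19 overlaps. The partners of Gpr62, Gpr173 and Gpr176 did: Pcbp4 at 2.38, 3010001F23Rik at 1.66 and 1700054M17Rik at 1.95. Gpr108 overlaps Trip10, which was lower in brain by 1.02 on the log2 scale (adjusted p = 0.00856) and at 0.21 in liver (adjusted p = 0.667), where Gpr108 was higher. Gpr142, at 1.02 in brain and not passing, overlaps Btbd17 at 2.68. Gpr39 overlaps Lypd1, at 0.97 in brain (adjusted p = 0.21). Gpr63, lower in liver and higher in FFPE tissue, overlaps C230012O17Rik, which was lower in liver at -0.81 (adjusted p = 0.018) and lower in FFPE tissue at -0.99 (adjusted p = 0.000895). Among Gpr genes themselves, Gpr34 and Gpr82 lie 5.27 kb apart on the X chromosome, Gpr141b and Gpr141 16.7 kb apart on chromosome 13, and Gpr18 and Gpr183 36.4 kb apart on chromosome 14. None of these 6 genes passed in any organ, and whether reads of Gpr141 and Gpr141b were split between them is not known.

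Genes that work with these receptors were taken from lists and tested in the same fit, where 5.53% of all tested genes were higher in brain and 4.53% lower, so that 1 call in a list of 16 or more is near that share. In brain, G protein alpha subunits were higher for 4 of 16 and lower for 1. Gnao1, the main alpha subunit of neurons, was 2.88-fold higher (1.53 ± 0.23, adjusted p = 0.000665) and Gna14, of the Gq family, 2.79-fold lower (-1.48 ± 0.26, adjusted p = 0.00197). Beta and gamma subunits were higher for 1 of 17, neuronal Gng3 at 2.40-fold, and lower for 3, with Gng5 at 2.35-fold lower. Adenylyl cyclases, the target of Gs, were higher for 3 of 10 and lower for 1, led by the calcium-stimulated Adcy8 at 5.58-fold (adjusted p = 5.23e-05) and Adcy1 at 2.79-fold (adjusted p = 0.000206). RGS proteins, which end G protein signals, were higher for 4 of 21 and lower for 1, with Rgs8 at 3.75-fold and Rgs7 at 2.59-fold. Receptor kinases and arrestins gave 0 of 10 calls in brain by limma (1 at an unadjusted p under 0.05). Without the frozen brain library, Adcy8 (adjusted p = 0.0227), Adcy1 (0.0401) and Rgs8 (0.0462) passed, and Gnao1 (0.111), Gna14 (0.254), Gng3 (0.0621), Gng5 (0.0969) and Rgs7 (0.129) did not.

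Adhesion receptors, many of which bore Gpr numbers in the past, are listed in the table under Adgr symbols, and none of their 18 older symbols occurred. In brain 6 of 27 were higher and 1 lower (5.53% and 4.53% of all tested genes), with a median of 0.07: Adgrb3, a synaptic adhesion receptor, was 4.79-fold higher (2.26 ± 0.24, adjusted p = 5.11e-05) and Adgra1 3.47-fold higher (adjusted p = 0.00208). Of 26 receptors that lost their Gpr name when a ligand was found, 2 were higher, a share near that of all tested genes, and 3 lower in brain, with a median of 0.09. S1pr5, a sphingosine 1-phosphate receptor of oligodendrocytes, was 2.67-fold higher (adjusted p = 0.000526), and Lpar6, a lysophosphatidic acid receptor, 3.81-fold lower (adjusted p = 6.83e-05). The Gpr-named genes had a higher share of brain calls, 23 of 75, and whether the shares differ was not tested. In FFPE tissue adhesion receptors were higher for 12 of 27 and lower for 1 (16.5% and 21.3% of all tested genes). Their median was 0.70, and Adgrl2 at 2.08-fold had the smallest adjusted p among the higher ones. With 1 library left out in turn, 3 to 9 of the 27 were higher. In heart Lpar4 was 3.01-fold higher (adjusted p = 0.0128) and in kidney Hcar1, the lactate receptor, 3.33-fold higher (adjusted p = 0.00351). Leaving out the frozen library of that organ gave adjusted p-values of 0.471 for Lpar4 and 0.963 for Hcar1, and leaving out the frozen brain library gave 0.0256 for Adgrb3, 0.3 for Adgra1, 0.102 for S1pr5 and 0.023 for Lpar6.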

How the data were processed

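H3K4m3 and input libraries of 4 mouse organs are described by the labels (12 samples of each), and 8 columns of H3K4m3 values were used; input libraries were not analysed here. The values, 1 per gene and column, are on a log2 scale and were normalized by the authors. Per the submitters' processing notes, Bowtie2, featureCounts and limma were used with mm10. Their versions and settings (counted region, strand) are not given here. Whole reads were recovered from the deposited log2 values to within 0.001 for 100% of values, so a value is the log2 of a CPM made from reads plus 0.5 and a library total that the authors scaled. Differences were fitted here with limma 3.58.1 in R 4.3.3 (linear model, empirical Bayes with trend) on all 8 libraries, with organ and preservation as terms and 3 residual degrees of freedom, for genes with a mean log2 value of at least 0. P-values were adjusted over all 25680 tested genes (Benjamini-Hochberg, threshold 0.05). A count of 0 would allow up to 3 reads; counting limits cover counting error only. With 8 libraries, a preservation difference that varies by organ enters the residual spread.

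The rule for named genes took, in each comparison, the Gpr genes that passed, up to 12 per direction, then in each list the gene with the smallest p for any organ, the one with the highest level and, in brain, the one that moved most against its list; from pathway lists it took the 2 genes with the smallest p in comparisons where any passed. Gpr genes outside it are named only to account for a list, a gene with no overlap or an overlapping gene, and were chosen after their values were seen. The Gpr genes and all lists were chosen with earlier results of these data known. Alternatives were no filter, a filter at a mean log2 value of 1, quantile normalization, a pseudocount of 1 CPM, precision weights, each library left out in turn, and differences within each preservation type. Gene positions and promoter windows are from RefSeq tables of GRCm38, the assembly that mm10 denotes; 75 Gpr genes matched a position and 53 a promoter window. Some Gpr genes enter the fits and the counts but are not reported here by name.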

Additional observations from a re-analysis of the deposited data

Results flagged for a closer look

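In 17 of 300 pairs of a Gpr gene and an organ (5.67%, and 7.99% over all tested genes), the organ's library was the highest of 4 in one preservation type and the lowest of 4 in the other. None of these differences between preservation types was tested, since each type has 1 library per organ. Values below are the organ's difference from the mean of the other organs within FFPE minus that within frozen libraries, on the log2 scale. Brain had 2 such genes: Gpr61, an orphan of appetite circuits, at -1.69 (1.5 in frozen and -0.19 in FFPE tissue), and Gpr20 at -1.35. In heart there were 7. Gpr82 was at -2.13 and Gpr152 at -0.99, while Gpr165 was at 2.03, Gpr146 at 1.02, Gpr160 at 0.98, Gpr174 at 0.90 and Gpr141b at 0.56. Kidney had only Gpr18, at 1.44, a receptor of immune cells. In liver, Gpr141 was at -1.85 and others were above 0: Gpr20 at 2.01, Gpr35 at 1.75, Gpr132 at 1.16, Gpr152 at 1.14 and Gpr179 at 1.13. None of the 17 pairs was among the organ calls of the Gpr genes, which is close to given. Opposite ranks shrink the difference averaged over preservation types and widen the residual spread.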

How the results depend on the processing

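No difference of a Gpr gene that passed changed sign under any alternative. Within each preservation type that is close to given, as opposite signs would have widened the residual spread. The counts that moved by over 1.5 times with all libraries kept were those of heart and kidney, 2 each, which became 1 each without a filter and with precision weights and 4 each with quantile normalization, and that of FFPE against frozen, 26, which became 13 with quantile normalization. With 1 library left out, a lone library of an organ is assumed to vary like the others, and the counts ran from 6 to 34 in brain (27 with all), 6 to 23 in liver (14), 0 to 7 in heart, 0 to 8 in kidney, 16 to 28 for FFPE against frozen (26) and 9 to 38 for any organ difference (26). The lowest brain count, 6, came without frozen brain, where 24 had an unadjusted p under 0.05, and the count was 16 without FFPE brain. Any organ difference gave 9 and 16 in those settings. Liver gave 6 without frozen liver, 9 without frozen brain and 23 without FFPE liver. FFPE against frozen gave 16 without frozen heart and 17 without FFPE heart, frozen brain or FFPE brain. Heart gave 0 by limma without FFPE heart, frozen heart or frozen kidney (13, 11 and 13 at an unadjusted p under 0.05), 1 without either brain library or FFPE kidney and 7 without either liver library. Kidney gave 0 without frozen brain, frozen heart or frozen kidney (10, 11 and 4 at an unadjusted p under 0.05), 1 without FFPE heart or FFPE kidney, 8 without frozen liver and 4 without its FFPE counterpart. In all 13 refits, 5 of 27 brain, 4 of 14 liver and 5 of 26 FFPE calls were kept, and 0 of 2 in heart and in kidney. No paired analysis was possible because the columns carry no replicate numbers, beyond the terms for organ and preservation, which already set each FFPE library against the frozen library of its organ. Low counts limit 24 genes with under 10 reads in some frozen library. Whether FFPE columns merge samples would change what their depth means.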
